A study of Arabidopsis thaliana with 9 samples.

Results

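RD29A, RD29B, KIN1, KIN2, COR413-PM1, COR413IM1, COR413IM2, ERD7 and RD22 are 9 Arabidopsis thaliana genes named for their induction by desiccation or cold. They were chosen by locus, by a rule that uses no measured value but was set with earlier results of these data known, and are 9 of the 37336 loci in the count table. Their RNA was measured by RNA-seq of whole wild-type (Col-0) seedlings given 10 µM abscisic acid (ABA, 3 libraries) or 0.1% DMSO (mock, 3 libraries) for 3 h in fresh liquid Murashige and Skoog medium. The seedlings had been moved from plates 3 days after germination and grown in 3 ml of that medium for 7 days at 22 °C, in 16 h light and 8 h dark. A DMSO content is given for the mock medium only. The remaining treatment, 10 µM of a compound labelled iCB (3 samples), was not analysed here. The replicates are described as biologically independent.

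ABA is the hormone of drought and seed maturation. Bound receptors inhibit protein phosphatases 2C, which frees SnRK2 kinases to phosphorylate the ABF bZIP factors, and these bind the ABA-responsive element (ABRE) before their target genes. A separate route uses the CBF and DREB2 factors, which bind the dehydration-responsive element, also called the C-repeat (DRE/CRT), in cold and drought. RD29A is the textbook gene with elements of both kinds, and RD22 is the textbook target of the factors MYC2 and MYB2.

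The 9 genes fall into 3 neighbouring pairs and 3 single loci in the TAIR10.1 annotation. RD29B (AT5G52300, chr5:21237021-21239531, + strand) lies 1185 bases before RD29A (AT5G52310, chr5:21240717-21243644, + strand), and both encode hydrophilic proteins of drying or chilled tissue. KIN1 (AT5G15960, chr5:5209717-5210826, + strand) and KIN2 (AT5G15970, also COR6.6, chr5:5211719-5212743, + strand), 892 bases apart, encode very small hydrophilic proteins, with 95.0% of their 201 coding bases identical. COR413IM1 (AT1G29395, chr1:10288129-10289666, − strand) and COR413IM2 (AT1G29390, chr1:10286067-10288103, − strand), 25 bases apart, encode membrane proteins of the chloroplast inner envelope, with 87.2% of 678 aligned coding bases identical. The single loci are COR413-PM1 (AT2G15970, chr2:6949851-6951192, + strand), a plasma membrane relative of the last pair, ERD7 (AT2G17840, chr2:7755605-7757929, − strand), an early dehydration gene, and RD22 (AT5G25610, chr5:8914122-8916856, − strand), whose product carries a BURP domain. The longest stretch of identical bases shared by 2 mRNAs of a pair was 58 bases for KIN1 and KIN2 and 59 bases for COR413IM1 and COR413IM2. How reads with several matches were counted is not known here, so the split of counts within these 2 pairs is uncertain.

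The 300 bases before the annotated start are shown for 6 of these genes. They hold short motifs that the ABF and the CBF or DREB2 factors are known to bind. The windows of COR413-PM1, COR413IM2 and ERD7, which are not shown, hold such motifs too. Capitals mark the ABRE core ACGTG and the DRE/CRT core CCGAC on either strand, and in RD22 also CACATG and TGGTTAG, known there as the MYC and MYB sites. The windows, 5′ to 3′ on the gene's own strand, are chr5:21240417-21240716 (+), chr5:21236721-21237020 (+), chr5:5209417-5209716 (+), chr5:5211419-5211718 (+), chr1:10289667-10289966 (−) and chr5:8916857-8917156 (−).
RD29A: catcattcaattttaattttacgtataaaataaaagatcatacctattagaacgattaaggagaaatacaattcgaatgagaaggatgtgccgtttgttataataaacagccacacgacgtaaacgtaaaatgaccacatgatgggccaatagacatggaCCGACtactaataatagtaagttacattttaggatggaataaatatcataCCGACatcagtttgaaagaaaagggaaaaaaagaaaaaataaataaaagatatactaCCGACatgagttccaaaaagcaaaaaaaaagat
RD29B: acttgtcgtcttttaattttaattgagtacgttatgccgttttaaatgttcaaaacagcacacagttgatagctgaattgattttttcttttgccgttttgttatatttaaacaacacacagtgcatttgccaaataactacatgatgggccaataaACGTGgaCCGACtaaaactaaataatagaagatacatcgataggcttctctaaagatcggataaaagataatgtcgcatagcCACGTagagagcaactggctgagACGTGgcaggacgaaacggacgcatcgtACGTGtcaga
KIN1: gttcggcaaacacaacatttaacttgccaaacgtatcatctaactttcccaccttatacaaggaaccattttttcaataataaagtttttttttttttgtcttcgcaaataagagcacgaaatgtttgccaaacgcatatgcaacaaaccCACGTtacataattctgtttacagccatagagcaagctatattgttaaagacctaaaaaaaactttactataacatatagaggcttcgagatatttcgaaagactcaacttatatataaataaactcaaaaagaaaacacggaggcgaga
KIN2: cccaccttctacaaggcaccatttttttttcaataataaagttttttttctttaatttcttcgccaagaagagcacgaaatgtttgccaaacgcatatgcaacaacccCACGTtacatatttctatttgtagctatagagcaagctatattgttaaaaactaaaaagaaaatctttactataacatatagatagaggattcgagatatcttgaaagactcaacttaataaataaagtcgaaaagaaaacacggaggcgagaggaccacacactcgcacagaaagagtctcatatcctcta
COR413IM1: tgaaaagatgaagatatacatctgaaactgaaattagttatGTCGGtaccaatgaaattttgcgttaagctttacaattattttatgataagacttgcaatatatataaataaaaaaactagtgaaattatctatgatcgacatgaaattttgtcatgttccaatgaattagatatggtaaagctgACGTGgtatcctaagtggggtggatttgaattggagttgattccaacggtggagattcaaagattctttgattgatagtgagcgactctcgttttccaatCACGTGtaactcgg
RD22: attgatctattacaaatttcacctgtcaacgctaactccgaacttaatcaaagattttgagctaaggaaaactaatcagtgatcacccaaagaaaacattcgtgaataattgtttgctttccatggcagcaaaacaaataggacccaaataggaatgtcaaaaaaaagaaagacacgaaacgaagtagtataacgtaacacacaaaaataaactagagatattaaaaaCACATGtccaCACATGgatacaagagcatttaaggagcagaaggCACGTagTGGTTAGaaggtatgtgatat

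RD29A and RD29B differed in the motifs closest to their starts. RD29A held 3 DRE/CRT cores and no ABRE core in its 300 bases, whereas RD29B held 4 ABRE cores and 1 DRE/CRT core. Over all 9 genes the ABRE core stood in 7 windows, all but those of RD29A and COR413-PM1, while 25.6% of 27443 protein-coding promoters of that length held it. The DRE/CRT core stood in 5 windows (RD29A, RD29B, COR413-PM1, COR413IM1 and ERD7), against 13.9% of all promoters. RD22 held 2 copies of CACATG; 13.1% of all promoters held at least 1 copy and 1.77% at least 2. It also held 1 copy of TGGTTAG, found in 3.88% of all promoters. Elsewhere among the 9 windows, RD29A held 1 copy of CACATG and COR413IM2 held 1 of TGGTTAG. COR413IM1 counted 3 ABRE cores, of which 2 overlap as the same CACGTG read on both strands, and in ERD7 the 2 DRE/CRT cores overlapped by 1 base. Apart from the 25 bases between the 2 genes, the window of COR413IM2 lies inside the COR413IM1 gene and is not printed. It held 2 ABRE cores, at 27 to 23 and at 15 to 11 bases before the start. The second lies between the genes and the first spans the edge of COR413IM1.

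The annotated starts decide what such a window holds. In the 500 bases before the start codon, which include the leader of the mRNA, all 9 genes held an ABRE core, against 34.8% of all promoters, and 7 held a DRE/CRT core, against 23.3%. RD29A then had 1 ABRE core and 4 DRE/CRT cores, and KIN1 and KIN2 had 5 and 7 ABRE cores with 1 DRE/CRT core each. A CACGTG is counted on both strands, so there can be fewer separate ABRE sites than cores. The KIN1 and KIN2 windows are themselves alike, with 231 of 249 bases identical over a local alignment that spans 265 columns. A match to so short a motif is a description of the letters only.

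**Figure D1:**
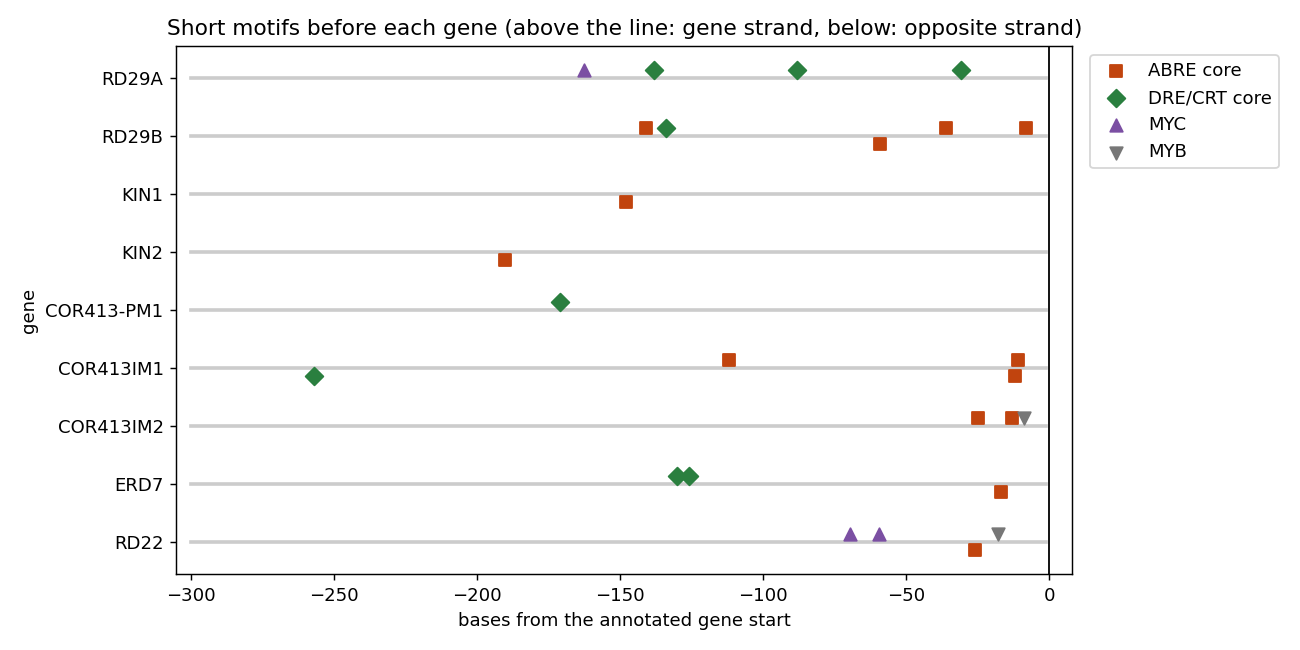
Motifs in the 300 bases before the annotated start of each gene. The x axis gives bases from the start, each row is a gene, and symbols mark ABRE cores, DRE/CRT cores, CACATG (MYC) and TGGTTAG (MYB), above the line on the gene's strand and below it on the other. RD29A shows 3 DRE/CRT cores and RD29B 4 ABRE cores.

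The libraries were of similar depth, 22449479 to 22722904 counts with ABA and 21585450 to 22528897 in mock. Of 21092 loci that passed the filter on low counts, 31% were called higher with ABA and 29.4% lower by edgeR's quasi-likelihood test (adjusted p below 0.05). With library totals in place of trimmed-mean (TMM) scaling, 32.1% of the calls were higher, against 51.3% with TMM, because all log2 fold changes shifted by -0.23 in the median. The seedling tissue showed its markers: 4 leaf markers summed to 20127 to 23474 CPM (counts scaled to library size, with TMM factors) with ABA and 20479 to 22238 CPM in mock, and 4 root markers to 3166 to 3477 CPM with ABA and 3402 to 4477 CPM in mock. Among the leaf and root markers the regulator GLK1 alone was called, lower with ABA; with library totals or upper-quartile factors RCA and PYK10 were called lower too. RCA was also called lower without ABA replicate 2 (adjusted p = 0.0314, edgeR's quasi-likelihood test), and EXPA7 was called higher without mock replicate 2 (adjusted p = 0.0466 in that test). Of 4 guard cell markers 3 fell and 1 rose, and their sum was 53.1 to 62.5 CPM with ABA and 69.9 to 77.0 CPM in mock. Of 4 seed markers the storage genes CRA1 and CRC and the oleosin OLEO1 averaged at most 0.0963 CPM in either group, while the late embryogenesis abundant (LEA) gene EM6 rose, to 11.4 ± 2.52 CPM with ABA against 0.125 ± 0.071 CPM in mock (SD, n = 3 each). The part of these shifts in the results below was not tested, and in whole seedlings a change in the share of a cell type and a change of RNA per cell cannot be told apart.

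All 9 genes rose with ABA, and in each of them the lowest ABA library lay above the highest mock library. All 9 passed the filter on low counts and the test, against 31% of all tested loci called higher; groups that did not overlap, with ABA higher, were found for 34.5% of them. The median log2 fold change (ABA minus mock) of the 9 was 4.35, beside -0.01 over all tested loci. The rises spanned a wide range, 3.08-fold for COR413IM2 to 3341-fold for RD29B. Together the 9 loci took up 1.76%, 1.69% and 1.59% of all counts in the ABA libraries, against 0.0839%, 0.0983% and 0.126% in the mock libraries. RD29A alone held 33.4 to 36.3% of those counts with ABA and 12.1 to 18.0% in mock.

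**Figure D2:**
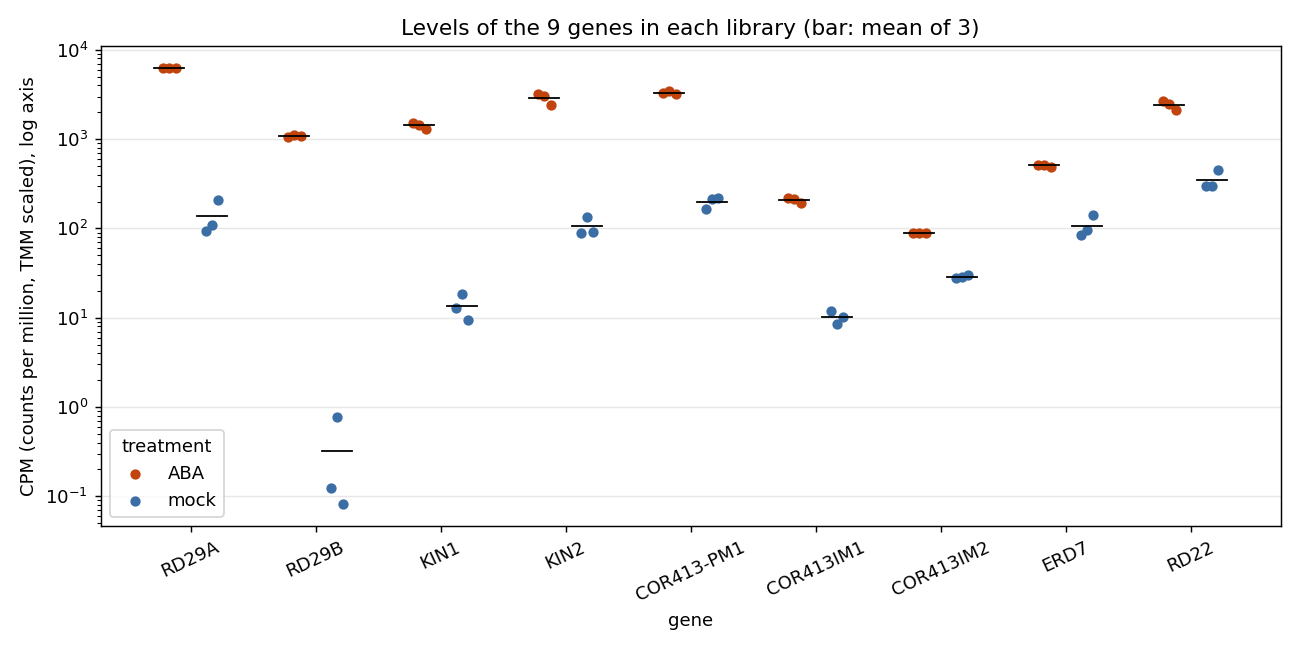
Level of each gene in every library. The y axis is CPM on a log scale, the x axis the genes, points are libraries (ABA left, mock right) and the bar is the mean of 3. For every gene the ABA points lie above the mock points; RD29A reaches 6247 CPM on average with ABA and RD29B 1087 CPM, against 0.324 CPM in mock.

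RD29A rose 45.3-fold. Its levels were 6301, 6246 and 6192 CPM in the ABA libraries, against 94.7, 109 and 209 CPM in mock replicates 1, 2 and 3. The ABA libraries were almost equal and mock replicate 3 stood above the other mock libraries. The log2 fold change was 5.50 ± 0.37 (SE; adjusted p = 5.02e-05, edgeR's quasi-likelihood test), and without mock replicate 3 it was 5.92. With ABA, RD29A was the locus with rank 3 of all 37336 by mean CPM and rank 10 by level per exon length; in mock its ranks were 1169 and 2035.

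RD29B, its neighbour, had almost no RNA in mock. It held 22254, 22835 and 22809 counts in the ABA libraries, against 3, 18 and 2 counts in mock, which is 1062, 1118 and 1080 CPM with ABA and 0.124, 0.767 and 0.0820 CPM in mock. The ABA libraries lay close together, and mock replicate 2 held most of the few mock counts. The log2 fold change was 11.71 ± 0.38 (SE; adjusted p = 1.04e-06, edgeR's quasi-likelihood test), rank 3 of the 21092 tested loci by size of rise. Without mock replicate 2 it was 13.29, so the size of this fold rests on 23 mock counts, 18 of them in that library. DESeq2 gave this fold change a larger SE, 0.96, and the mock libraries had a coefficient of variation of 118%.

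KIN1 and KIN2, the small near-copies, also rose far. KIN1 stood at 1525, 1453 and 1296 CPM in the ABA libraries and at 12.9, 18.5 and 9.35 CPM in mock. KIN2 stood at 3231, 3024 and 2409 CPM with ABA and at 89.4, 135 and 91.6 CPM in mock. In both genes ABA replicate 3 was the lowest ABA library and mock replicate 2 the highest mock library. The log2 fold changes were 6.71 ± 0.28 for KIN1 and 4.78 ± 0.22 for KIN2 (SE; adjusted p = 2.99e-06 and 1.90e-06, edgeR's quasi-likelihood test).

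All 3 COR413 genes among the 9 rose. COR413-PM1 reached 3273, 3434 and 3196 CPM with ABA, against 163, 211 and 218 CPM in mock, a log2 fold change of 4.06 ± 0.13 (SE). COR413IM1 reached 217, 214 and 195 CPM with ABA, against 11.9, 8.61 and 10.1 CPM in mock, a log2 fold change of 4.35 ± 0.12 (SE). COR413IM2, next to it, had 89.0, 89.9 and 88.2 CPM with ABA and 27.9, 28.7 and 30.2 CPM in mock, a log2 fold change of 1.62 ± 0.06 (SE). Its libraries agreed closely within each treatment, and its rise was the smallest of the 9. The adjusted p in edgeR's quasi-likelihood test was 3.85e-08, 2.26e-08 and 8.38e-08 for COR413-PM1, COR413IM1 and COR413IM2. By its gene span COR413IM2 overlaps AT1G29380 on the other strand by 98 bases; that gene averaged 5.74 ± 0.53 CPM with ABA and 4.02 ± 0.99 CPM in mock (SD, n = 3 each), and the strand setting of the counting is not known here.

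ERD7 and RD22 rose less than the RD29 and KIN genes. ERD7, whose family is known from senescence and dehydration, had 515, 514 and 492 CPM with ABA and 84.2, 95.2 and 140 CPM in mock. RD22 had 2651, 2492 and 2133 CPM with ABA and 296, 297 and 455 CPM in mock. Mock replicate 3 was the highest mock library for both. The log2 fold changes were 2.25 ± 0.19 for ERD7 and 2.80 ± 0.20 for RD22 (SE; adjusted p = 6.30e-05 and 1.80e-05, edgeR's quasi-likelihood test).

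**Figure D3:**
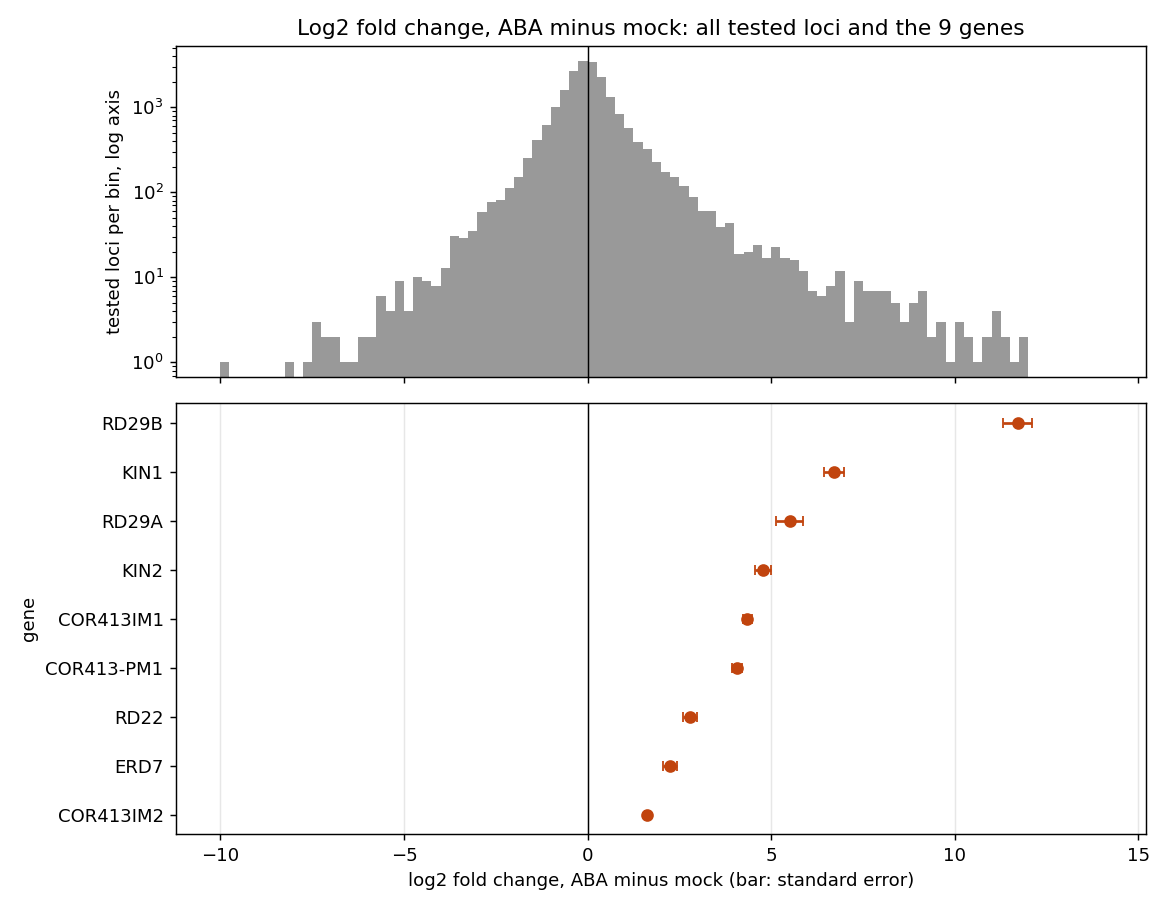
Log2 fold change, ABA minus mock, on the x axis. The upper panel counts all tested loci per bin (log axis) and the lower panel gives the 9 genes with their standard errors. All 9 lie to the right of 0, from 1.62 for COR413IM2 to 11.71 for RD29B.

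Within each neighbouring pair the balance of the genes differed between treatments. For every 100 RD29A counts there were 16.9, 17.9 and 17.4 RD29B counts in the ABA libraries, against 0.131, 0.702 and 0.0392 in mock. For every 100 KIN2 counts there were 47.2, 48.1 and 53.8 KIN1 counts with ABA and 14.4, 13.8 and 10.2 in mock. For every 100 COR413IM2 counts there were 244, 238 and 221 COR413IM1 counts with ABA, against 42.9, 30.0 and 33.4 in mock, so the more abundant gene of this pair was COR413IM1 with ABA and COR413IM2 in mock. These ratios are taken within a library and need no scaling between libraries. The log2 ratio was higher with ABA by 6.63 for RD29B to RD29A, by 1.97 for KIN1 to KIN2 and by 2.74 for COR413IM1 to COR413IM2. In all 3 pairs the ABA and mock libraries did not overlap. How often the ratio of 2 neighbouring loci separates the treatments over the whole table was not counted. Among single tested loci, 34.5% had groups that did not overlap with ABA higher. A two-sided exact permutation test of 3 against 3 libraries gave p = 0.1 for each of the 3 pairs, also after adjustment over them, which is the smallest p it can give and does not pass 0.05. The RD29 difference was 7.65 without mock replicate 2, 5.71 without mock replicate 3 and 5.64 with 5 counts added to each gene in place of 0.5.

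**Figure D4:**
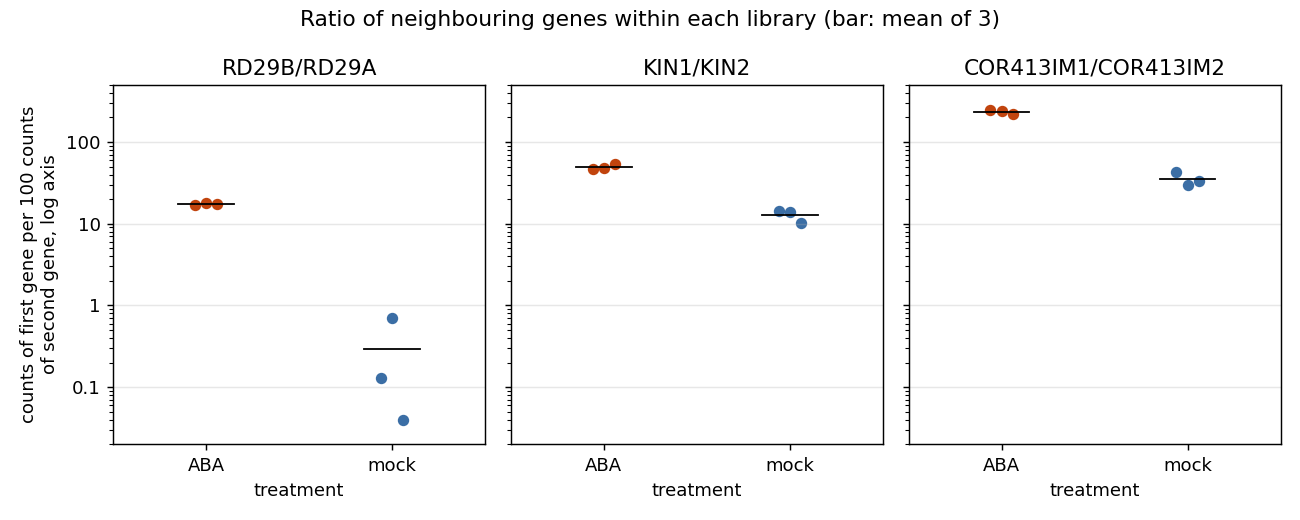
Counts of the first-named gene per 100 counts of its neighbour, in each library, on a log axis, with ABA left of mock in each panel; the bar is the mean of 3. The ABA libraries lie above the mock libraries in all 3 panels, at 221 to 244 against 30.0 to 42.9 for COR413IM1 and COR413IM2.

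Levels of different genes were compared per exon length, as RPKM (CPM divided by the exon length in kilobases). With ABA the order was KIN2 (3851 ± 570 RPKM, SD, n = 3), COR413-PM1 (3040 ± 112), RD29A (2346 ± 20.5), KIN1 (1719 ± 141), RD22 (1404 ± 154), RD29B (501 ± 13.0), ERD7 (266 ± 6.97), COR413IM1 (204 ± 11.8) and COR413IM2 (67.0 ± 0.63). No 2 neighbours in this order overlapped in their libraries, although the lowest KIN2 library (3213 RPKM) and the highest COR413-PM1 library (3162 RPKM) came close. In mock the order was RD22 (202 ± 53.1 RPKM), COR413-PM1 (182 ± 27.5), KIN2 (140 ± 34.2), ERD7 (55.8 ± 15.4), RD29A (51.8 ± 23.4), COR413IM2 (21.8 ± 0.90), KIN1 (16.4 ± 5.60), COR413IM1 (10.0 ± 1.64) and RD29B (0.149 ± 0.177). There RD22, COR413-PM1 and KIN2 overlapped as neighbours, as did ERD7 with RD29A, COR413IM2 with KIN1, and KIN1 with COR413IM1. The highest mean was 57.5 times the lowest with ABA and 1353 times the lowest in mock, a difference set by RD29B alone: without it the ratios were 57.5 with ABA and 20.2 in mock.

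**Figure D5:**
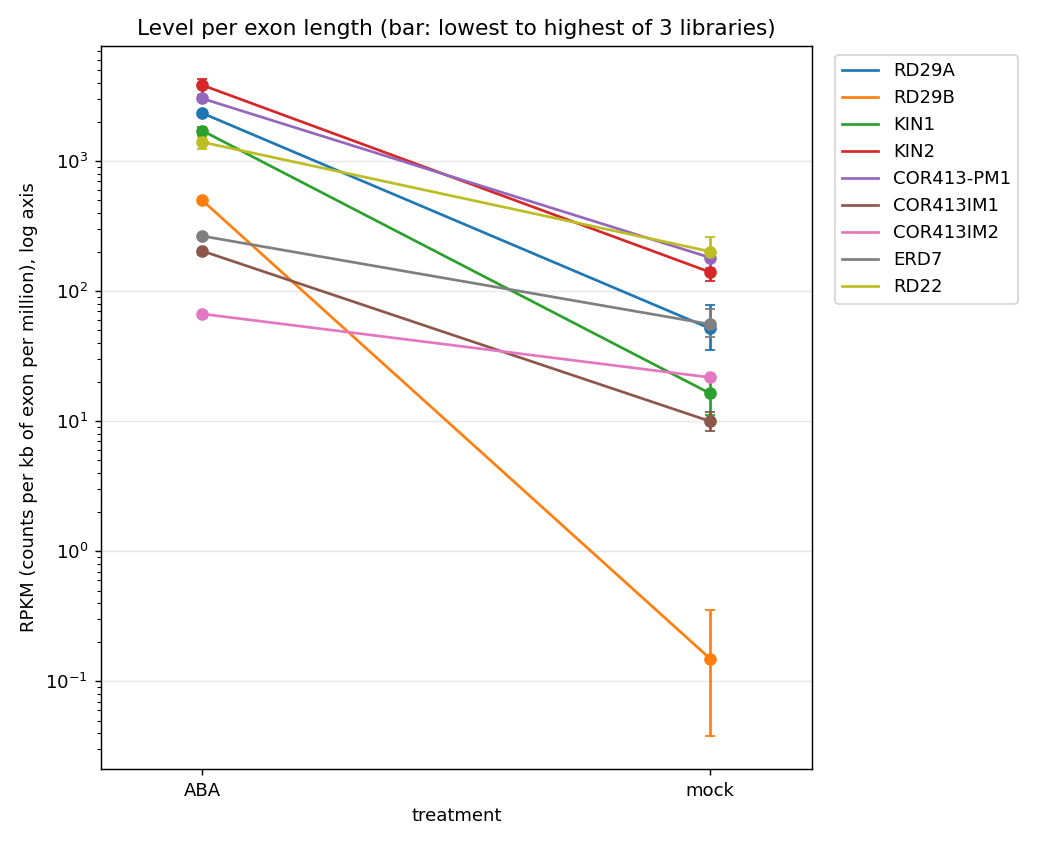
Mean level per exon length (RPKM, log axis) of each gene with ABA (left) and in mock (right), joined by a line; bars run from the lowest to the highest of 3 libraries. RD29B has the lowest mock level, 0.149 RPKM, and lies above ERD7, COR413IM1 and COR413IM2 with ABA, and RD22, the highest in mock, lies below KIN2, COR413-PM1, RD29A and KIN1 with ABA.

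The libraries spread less with ABA than in mock for all 9 genes. The coefficient of variation over 3 libraries was 0.875 to 14.8% with ABA (median 3.67%) and 4.14 to 118% in mock (median 26.2%). Over 15829 loci with a mean of at least 5 CPM the median was 6.23% with ABA and 6.78% in mock. Counting error alone would give 36.1% for RD29B in mock and at most 6.38% for the other 8 genes there. Summed over loci, the chi-square of counts put pairs of mock libraries further apart than pairs of ABA libraries. Over degrees of freedom it was 14.1 to 14.7 in mock and 6.64 to 7.41 with ABA. Loci with many counts can weigh most in this sum, so it does not describe the typical locus. The share of all loci that spread less with ABA was not counted. The mock libraries did not rank the genes alike. Mock replicate 3 was highest for RD29A, COR413-PM1, COR413IM2, ERD7 and RD22, mock replicate 2 for RD29B, KIN1 and KIN2, and mock replicate 1 for COR413IM1. With ABA, replicate 3 was the lowest library for 8 of the 9 genes, all but RD29B.

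The relatives of these genes changed less uniformly. Of 15 genes of the same families, 13 were tested, 8 rose and 2 fell (median log2 fold change 1.15, beside -0.01 for all tested loci). Among all tested loci, 31% were called higher and 29.4% lower. AT3G02480, a small LEA gene, reached 1762 ± 63.2 CPM with ABA against 0.766 ± 0.204 CPM in mock (SD, n = 3 each). COR413-PM2 (AT3G50830) rose by 1.78 ± 0.06 on the log2 scale and AT4G37220, of the same WCOR413 family, by 5.93 ± 0.34, whereas AT2G23680 of that family fell by 1.79 ± 0.20 (SE). AT3G51250, related to ERD7, rose by 1.15 ± 0.06. PG1 (AT1G60390), which like RD22 has a BURP domain, fell by 0.98 ± 0.09. In edgeR's quasi-likelihood test no adjusted p of these 6 exceeded 1.03e-04. With library totals AT4G35985, also related to ERD7, was called lower as well (log2 fold change -0.27, against -0.04 with TMM).

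Most genes of regulators tied to these promoters rose too. Of 18 regulators all were tested, 13 rose and 1 fell (median log2 fold change 1.94). The shares over all tested loci were 31% higher and 29.4% lower. The ABRE-binding factor genes ABF2, ABF3 and ABF4 rose by 2.69 ± 0.06, 3.74 ± 0.11 and 1.58 ± 0.08 (SE). CBF4, a CBF gene known for its response to drought, reached 6.54 ± 0.94 CPM with ABA against 0.112 ± 0.051 CPM in mock (SD, n = 3 each). HOS1, a ubiquitin ligase known to act on the cold regulator ICE1, fell by 0.33 ± 0.07. In edgeR's quasi-likelihood test no adjusted p of these 5 exceeded 2.85e-03. The other listed CBF and DREB2 genes were called higher too, from 1.40 ± 0.16 for DREB2B to 3.26 ± 0.24 for CBF3 (log2 fold change, SE). Among them CBF2 rose by 2.31 ± 0.59. CBF2 lost its call without ABA replicate 1, without ABA replicate 2 or without mock replicate 2 (adjusted p = 0.0641, 0.0603 and 0.0699 in edgeR's quasi-likelihood test). For the factors tied to RD22, MYB2 stood at 4.80 ± 0.39 CPM with ABA and 0.404 ± 0.270 CPM in mock, and MYC2 at 128 ± 27.4 CPM with ABA and 79.7 ± 28.8 CPM in mock (SD, n = 3 each), where its groups overlapped; these 2 were picked for their link to RD22 after their values were seen. MYC2 was not called (adjusted p = 0.143 in edgeR's quasi-likelihood test).

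Other genes named for desiccation, dehydration or cold did not all follow. Of 22 such genes, 21 were tested, 15 rose and 4 fell (median log2 fold change 2.32), beside 31% higher and 29.4% lower among all tested loci. RD20, a caleosin gene, rose by 8.85 ± 0.14 on the log2 scale (SE), and ERD14, a dehydrin gene, by 2.68 ± 0.09. COR15A and COR15B, which encode protective proteins of the chloroplast, rose by 8.09 ± 0.19 and 6.23 ± 0.10. Against them ERD6, a sugar transporter gene, fell by 2.86 ± 0.24, ERD5, of proline breakdown, fell by 0.91 ± 0.11, ERD8, a cytosolic chaperone gene, fell by 0.80 ± 0.14 and ERD3, a methyltransferase-like gene, fell by 0.49 ± 0.07. In edgeR's quasi-likelihood test no adjusted p of these 8 exceeded 1.77e-03. ERD13 stood at -0.21 ± 0.09 and was called lower with upper-quartile factors or library totals, with the stricter filter and without mock replicate 2. RD28, at 0.49 ± 0.24, was called higher in DESeq2 only among the alternatives (adjusted p = 0.0268).

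The genes that flank these loci moved in both directions. The nearest protein-coding gene on each side gave 12 genes, of which 10 were tested, 6 rose and 3 fell, beside the 31% and 29.4% of all tested loci. Their log2 fold changes ran from -1.47 to 2.50. AT2G15960, left of COR413-PM1 and annotated as a stress-induced protein, had the largest rise, 2.50 ± 0.10 (SE), at 107 ± 10.6 CPM with ABA against 18.9 ± 2.12 CPM in mock (SD, n = 3 each). ML5 (AT1G29400), beyond COR413IM1, rose by 1.67 ± 0.06, close to the 1.62 ± 0.06 of COR413IM2. AT5G15980, 318 bases beyond KIN2, fell by 1.25 ± 0.11, and CYP96A4 (AT5G52320), beyond RD29A, rose by 0.46 ± 0.10. In edgeR's quasi-likelihood test no adjusted p of these 4 exceeded 3.11e-03.

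Loci with a profile most like 3 of the genes were found by the root mean square (RMS) difference of centred log2 CPM over the 6 libraries, among 15820 other loci with a mean of at least 5 CPM. For RD29A they were AT1G16850 (RMS 0.129), the wax gene CER1 (0.199), AT4G01985 (0.240), the dehydrin gene LTI30 (0.279) and the galactinol synthase gene GolS4 (0.283). For COR413-PM1 they were AT1G19970 (0.0750), the dehydrin genes ERD10 (0.118) and COR47 (0.124), the bZIP factor gene GBF3 (0.153) and AT1G62620 (0.155). For RD22 they were HVA22D (0.153), HHP1 (0.155), AT5G60680 (0.155), AT3G55430 (0.159) and the ABA hydroxylase gene CYP707A2 (0.162). The difference between the treatments makes up most of each profile, so this measure mainly finds genes with a rise of like size.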

How the data were processed

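The mRNA kit kept strand, per the labels' protocols. The submitters' processing notes name the TAIR10 build and the tools FastQC, cutadapt, STAR and DESeq2; no version is given, and the way reads were counted is not stated there. Deposited values are raw counts per locus, which the authors had not normalized. Of its columns, 6 carry the names of mock and ABA samples; 3 further columns have names found in no sample's labels and were not used, so the planned iCB comparisons were not made. No 2 replicates agreed within sampling noise. The chi-square of counts over degrees of freedom was 6.64 to 7.41 between ABA libraries and 14.1 to 14.7 between mock libraries.

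In R 4.3.3, edgeR 4.0.16 kept loci by filterByExpr, scaled libraries by TMM and compared ABA with mock by the robust quasi-likelihood F test, with Benjamini-Hochberg adjustment over all 21092 tested loci and calls below 0.05. The SE was taken as the size of the log2 fold change over the root of F. The steps were also run on simulated counts, with far fewer loci changed than here and smaller changes than the largest here. That run does not bear on the scaling or on the largest folds. Exon lengths, neighbours and sequences came from RefSeq's TAIR10.1 annotation and genome, by locus; TAIR10.1 keeps the nuclear chromosomes of TAIR10. Motifs were searched on both strands. Members and gene lists were chosen with earlier results of these data known. From each list, the genes named are up to 4 with the smallest adjusted p plus called genes that moved against the rest. Flanking genes, exceptions and the CBF and DREB2 genes other than CBF4 were picked after values were seen. Alternatives were DESeq2 1.42.0, limma-voom (limma 3.58.1), other scalings and filters, a replicate block and each library left out.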

Additional observations from a re-analysis of the deposited data

How the results depend on the processing

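All 9 genes kept their direction and their call in each of the 14 alternative fits (126 values, largest adjusted p 1.10e-03 in these count and voom fits). RD29B moved most, 11.23 to 13.29 on the log2 scale with single libraries left out; library totals gave the lowest value for the other 8 genes, by the shift of all loci. Over all loci the number called lower was 9459 with library totals, against 6205 with TMM; the other 41 of 42 counts of called loci stayed within 1.5 times the TMM value. With the replicate number as a block 12815 loci were called, against 12742 without it, and no call among the 9 genes changed; of the listed genes, MYC2 (higher, adjusted p = 1.04e-03) and RCA (lower, adjusted p = 0.0184) were called by edgeR with the block and not without it. Deviations of same-numbered ABA and mock libraries correlated at 0.061, 0.0763 and 0.188 across loci for replicates 1, 2 and 3. The replicate numbers are not stated to mark a shared batch, so the block was kept as an alternative. Whether the libraries numbered 3 share an effect was not tested. The 21 alternative values of the pair ratios kept their direction, and none could pass 0.05 with so few libraries. Among the 9 genes depth limits only RD29B in mock, at 23 counts in all. Other genes named above also had few counts in mock replicates 1, 2 and 3, which limits the size of their rises. These were AT4G37220 (2, 10 and 8), CBF4 (2, 4 and 2), EM6 (5, 2 and 2), MYB2 (16, 10 and 3) and AT3G02480 (18, 23 and 14). Of the loci with profiles like RD29A or COR413-PM1, AT4G01985 and AT1G62620 were also low in mock, at 0.276 and 1.07 CPM on average.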
